A study of Homo sapiens with 6 samples.

Results

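The genes through which ovarian cancer cells present signals to T cells, natural killer cells and macrophages were followed in Hey and SKOV3, both established lines of human ovarian cancer, before and after the formation of polyploid giant cancer cells (PGCCs). They are 10 of the 59008 gene symbols in the expression table: CD274, PDCD1LG2, CD276, VTCN1, CD47, NT5E, PVR, NECTIN2, ULBP2 and MICA. They were chosen by symbol, as known immune checkpoint and immune ligand genes, with earlier results of these data known. Levels are in TPM (transcripts per 1000000), which divides by transcript length and scales within each library. A gene was compared between libraries when its mean over the 6 libraries was at least 1 TPM, which held for 14988 genes and for 9 of the 10 genes. VTCN1, with a mean of 0.874 TPM, is described by its levels alone.

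Each line was sequenced in 3 states with 1 library per state, 6 libraries in all. Parental cells were untreated. PGCCs had received paclitaxel, which freezes microtubules and arrests cells in mitosis, at 500 nM for 16 hours and had then recovered for 3 days by the treatment labels of both lines. The title of the SKOV3 PGCC library gives day 7 instead, so the length of recovery in that library is uncertain. Daughter cells came from the same paclitaxel treatment after 30 days of recovery, and the label of each calls it clone 1, so a daughter library stands for 1 clone of its line. Hey was grown in MEM Eagle and SKOV3 in RPMI-1640 medium, both with fetal bovine serum, so cell line and medium cannot be told apart. With 1 library per condition, a difference between 2 states of a line carries no error and no p-value. It is given as a difference of log2(TPM + 1), which understates the change of low genes, and it is called when it reaches 1, a 2-fold change. Libraries are repeated only across states, 3 for each line, or across lines, 2 for each state, and limma was run on those repeats.

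The libraries had the markers of their labelled origin in part. KRT7, KRT8 and KRT18, keratins of simple epithelia, and PAX8, a factor of Müllerian epithelium, were at least 54.7 TPM in every library. The epithelial genes CDH1, MUC1 and MUC16 were at or below 0.14 TPM in the Hey libraries, and EPCAM was at or below 1.43 TPM there. Of 18 leukocyte markers, CD3D, CD3E, MS4A1, NKG7 and FCGR3A were listed at 0 in all 6 libraries, and PTPRC, the pan-leukocyte gene, did not exceed 0.43 TPM. Only CD68 and NCAM1, which tumor cells can also carry, had a mean of at least 1 TPM, and the list summed to 67.8 to 82.7 TPM in Hey and 2.23 to 21.2 TPM in SKOV3. The 10 fibroblast markers summed to 59.0 to 71.3 TPM in Hey, mostly ACTA2, and 14.2 to 29.6 TPM in SKOV3. TPM columns summed to 911825 to 920497, with mitochondrial transcripts at 2.64% to 14.8% of the sum. The table carries no read counts, so the number of reads behind a value cannot be given, and by the study's methods the mapped totals of the libraries were close to each other. In bulk RNA, fewer cells of a type and less RNA per cell cannot be told apart.

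The products of these genes act at the contact between a tumor cell and an immune cell. PD-L1 (CD274) and PD-L2 (PDCD1LG2) engage PD-1 on activated T cells and dampen them, and their expression is a known response to interferon. B7-H3 (CD276) and B7-H4 (VTCN1) are further members of the B7 family with inhibitory activity on T cells. CD47 binds SIRPα on macrophages and restrains engulfment, while CD73 (NT5E) makes extracellular adenosine, which suppresses lymphocytes. PVR and NECTIN2 are read by the activating receptor DNAM-1 and the inhibitory receptor TIGIT, and MICA and ULBP2 mark stressed cells for natural killer cells through NKG2D.

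**Figure D1:**
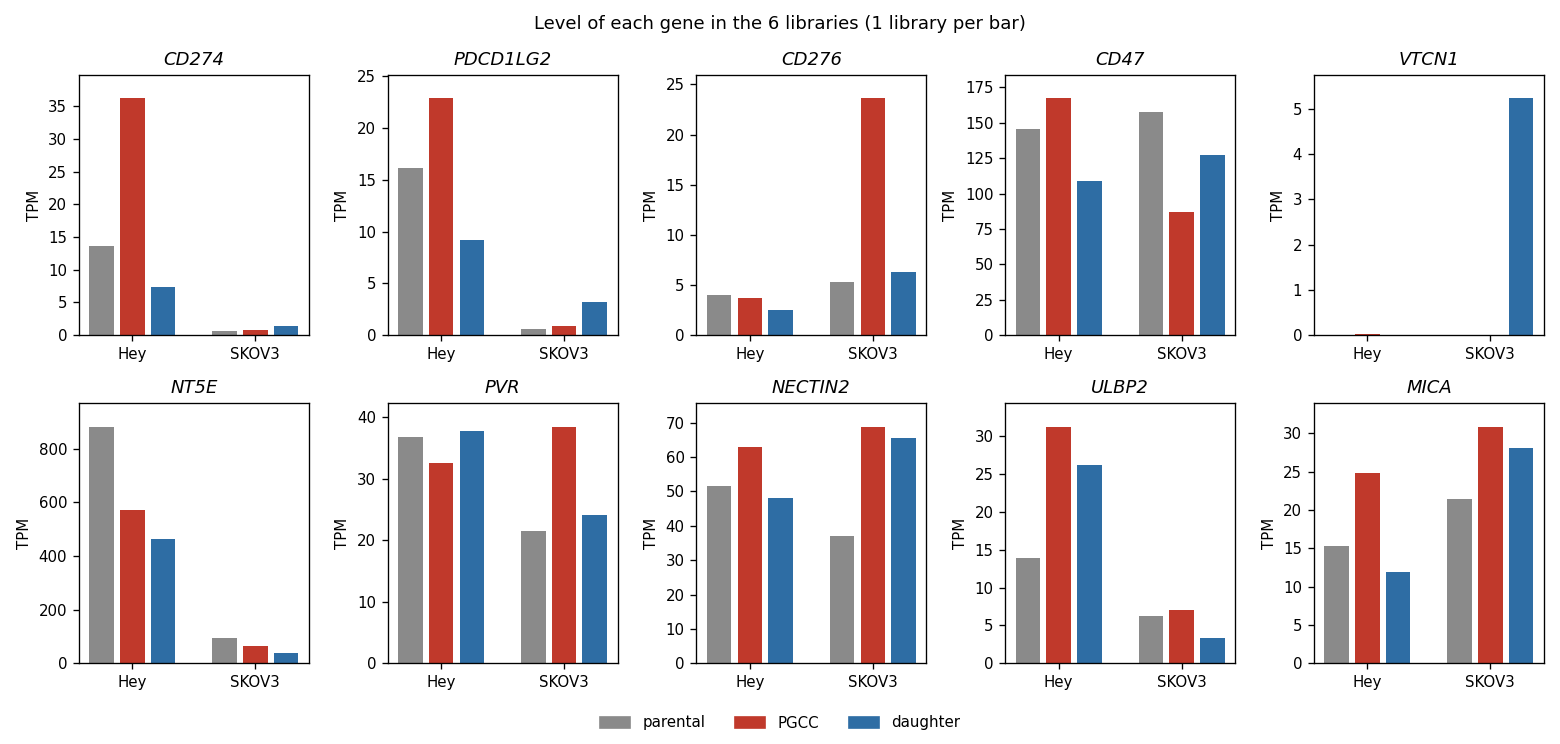
Levels of the 10 genes in TPM (vertical axes, starting at 0 and scaled separately for each gene) in parental cells (grey), PGCCs (red) and daughter cells (blue) of Hey and SKOV3, 1 library per bar. CD274 and PDCD1LG2 were highest in Hey PGCCs, CD276 was highest in SKOV3 PGCCs, VTCN1 exceeded 1 TPM in SKOV3 daughter cells alone, and NT5E was lower in SKOV3 than in Hey in every state.

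Promoter sequence is shown for CD274, ULBP2 and CD276, the genes that were 2-fold higher in PGCCs than in parental cells of a line. RefSeq promoter sequences (GRCh38.p14) matched 9 of the 10 genes, all but PDCD1LG2. The 250 bases before the RefSeq start were searched on both strands for the interferon regulatory factor core GAAANNGAA, the GC box GGGCGG, the core TGACG of cyclic AMP response elements (CRE), the CCAAT box, the AP-1 site TGANTCA, the heat shock element GAANNTTC, the TATA box TATAAA and the NF-κB consensus. Bases that GENCODE release 44 places in an exon of the gene were left off the printed sequences, which leaves 211 bases for CD274, 136 for CD276 and 250 for ULBP2. In CD274 (chr9:5450292-5450502, plus strand) the capitals mark 2 overlapping matches to the interferon regulatory factor core. In CD276 (chr15:73684133-73684268, plus strand, the RefSeq window that lies farther upstream of 2) they mark 4 GC boxes, some of which overlap, and in ULBP2 (chr6:149941764-149942013, plus strand) 3 CRE cores. GENCODE starts the CD276 gene at chr15:73683966, so by that release the printed CD276 stretch lies inside the gene, outside its exons.
CD274: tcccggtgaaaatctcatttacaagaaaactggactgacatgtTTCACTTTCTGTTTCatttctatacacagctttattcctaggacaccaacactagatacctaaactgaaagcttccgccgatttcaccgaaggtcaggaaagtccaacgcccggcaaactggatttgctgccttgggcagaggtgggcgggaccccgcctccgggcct
CD276: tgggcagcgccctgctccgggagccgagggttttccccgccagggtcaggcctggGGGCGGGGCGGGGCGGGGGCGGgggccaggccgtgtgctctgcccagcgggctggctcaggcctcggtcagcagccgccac
ULBP2: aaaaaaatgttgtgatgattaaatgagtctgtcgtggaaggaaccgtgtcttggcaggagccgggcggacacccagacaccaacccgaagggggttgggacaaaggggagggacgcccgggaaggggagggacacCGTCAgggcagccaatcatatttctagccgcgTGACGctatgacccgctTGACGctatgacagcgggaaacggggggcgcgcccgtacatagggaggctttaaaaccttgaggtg
The interferon regulatory factor core occurred in CD274 alone among the 9 genes and in 6.88% of 35114 promoter windows. GC boxes were present in 7 of the 9 genes against 42.6% of all windows, and CRE cores in 4 against 21.2%. The counts of matches use the whole 250 bases, exonic bases included, which were 250 for NT5E and 150 for MICA. By GENCODE the windows of CD276, CD47, NT5E and MICA lie within the bounds of the gene. Window GC content ran from 54.8% in CD274 to 80.8% in CD276, against a median of 58% over all windows. The CCAAT box was found in 4 of the 9 genes (32.0% of all windows) and the heat shock element in MICA alone (5.78%). No match to the AP-1 site, the TATA box or the NF-κB consensus lay in the windows of the 9 genes, against 6.57%, 10.7% and 9.96% of all windows. For CD276 this count uses the upstream window, since the other window held 1 match to the NF-κB consensus. A match describes letters in this window and is not evidence of binding.

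The ligands of PD-1 were high in Hey and low in SKOV3. CD274 (ENSG00000120217, GRCh38 chr9:5450503-5470566) stood at 13.6 TPM in Hey parental cells, 36.2 TPM in Hey PGCCs and 7.29 TPM in Hey daughter cells. In SKOV3 the same states held 0.694, 0.819 and 1.44 TPM. Every Hey library was above every SKOV3 library, and the Hey PGCC library was the highest of the 6. Within Hey, CD274 was 2.67-fold higher in PGCCs than in parental cells, a difference of 1.35 on the log2(TPM + 1) scale, and 4.96-fold higher than in daughter cells (2.17). The daughter cells of Hey were below the parental cells by 1.86-fold, a difference of -0.81 that did not reach the threshold. In SKOV3 the differences were 0.10 for PGCCs and 0.52 for daughter cells against parental cells, at levels near 1 TPM. CD274 ranked 6625th by level among the genes above 0 in Hey parental cells and 3251st in Hey PGCCs, and it moved from the eighth to the fourth place among the 10 genes.

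PDCD1LG2 (ENSG00000197646, chr9:5510531-5571282) lies 39964 bases beyond CD274 on the same strand. It held 16.1, 22.9 and 9.22 TPM in Hey parental cells, PGCCs and daughter cells, the same order of states as CD274. SKOV3 parental cells, PGCCs and daughter cells held 0.577, 0.884 and 3.17 TPM, so the order of states was another in this line. Against parental cells the difference was 0.48 in Hey PGCCs and 0.26 in SKOV3 PGCCs, and neither was called. Between daughter and parental cells the difference was -0.74 for Hey, not called, and 1.40 for SKOV3, called. PGCCs were above daughter cells in Hey (1.22) and below them in SKOV3 (-1.15), and PDCD1LG2 was the only one of the 9 genes called in opposite directions in the lines. Over all 14988 genes, 426 were called in opposite directions in that comparison. The SKOV3 values lie near 1 TPM and depend on scaling, since the daughter difference was 0.94 after quantile normalization and the difference between PGCCs and daughter cells was -0.77 after quantile normalization and -0.99 after median ratio scaling, which divides each library by its median ratio to the geometric mean library. That last difference was -0.87 with the trend of differences on transcript GC content and length removed. Summed over both genes, the PD-1 ligands made up 29.7, 59.1 and 16.5 TPM in the 3 Hey states and 1.27, 1.70 and 4.60 TPM in the SKOV3 states.

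The genes known to control PD-L1 were listed from interferon, NF-κB and protein stability pathways, and all 17 passed the filter on level. In Hey PGCCs 1 of the 17 was called higher than in parental cells, IRF9, a transcription factor of interferon signaling, with 7.46 TPM in parental cells and 17.0 TPM in PGCCs (1.09), where 7.67% of all genes were called higher. IRF1, which binds interferon response elements, held 8.39 and 14.3 TPM in the same libraries, a difference of 0.71. In SKOV3 PGCCs 0 of the 17 were called higher and 1 lower, CMTM6, which protects PD-L1 protein from degradation, at 84.5 TPM in parental cells and 32.0 TPM in PGCCs (-1.37), where 9.94% of all genes were called higher and 4.96% lower. CMTM6 was also lower in SKOV3 daughter cells at 39.0 TPM (-1.10). With the GC trend removed in that way, neither CMTM6 difference passed the threshold (-0.80 and -0.91). SKOV3 daughter cells had 2 genes called higher, IRF9 with 0.33 TPM in parental and 4.03 TPM in daughter cells (1.92) and IFNGR1 with 84.4 and 203 TPM (1.25), where the share over all genes was 15.1%. Against daughter cells, IRF9 was called higher in Hey PGCCs (1.30) and lower in SKOV3 PGCCs (-1.01, and -0.86 after median ratio scaling), the same pair of directions as PDCD1LG2. In none of the 3 comparisons did Hey and SKOV3 share a call of like direction in this list. Over all 14988 genes, 58 to 182 were shared per comparison and direction, and 426 were called in opposite directions between PGCCs and daughter cells.

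CD276 (ENSG00000103855, chr15:73683966-73714514) had its highest level in the SKOV3 PGCC library. Hey parental cells, PGCCs and daughter cells held 4.02, 3.72 and 2.46 TPM, and SKOV3 parental cells, PGCCs and daughter cells held 5.32, 23.6 and 6.34 TPM. The SKOV3 PGCC library was thus 4.44-fold above the parental library (1.96) and 3.72-fold above the daughter library (1.75), while the Hey libraries lay between 2.46 and 4.02 TPM. In Hey the difference between PGCCs and parental cells was -0.09, and its sign turned with mitochondrial genes left out (0.04).

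The SKOV3 PGCC library differed from the others in a property that touches CD276. Across 13348 genes with a GC content, the difference between SKOV3 PGCCs and parental cells increased with transcript GC (Spearman correlation 0.722 across genes, which are not independent replicates), whereas in Hey the correlation was -0.044. The median SKOV3 difference was -0.53 for transcripts below 40% GC and 0.94 for those of at least 60%. The CD276 transcript is 60% GC, and its difference of 1.96 lay above the upper quartile of that highest class (1.24). With a smooth trend in GC content and transcript length subtracted from all genes, CD276 kept a difference of 1.21. NECTIN2, at 60.8% GC, went from 0.87 to 0.10, and CD47, at 37.1% GC, from -0.85 to -0.29. The correlation was 0.456 between SKOV3 PGCCs and daughter cells, where CD276 went from 1.75 to 1.25. Whether the GC trend arose in the cells or in the library was not tested.

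**Figure D2:**
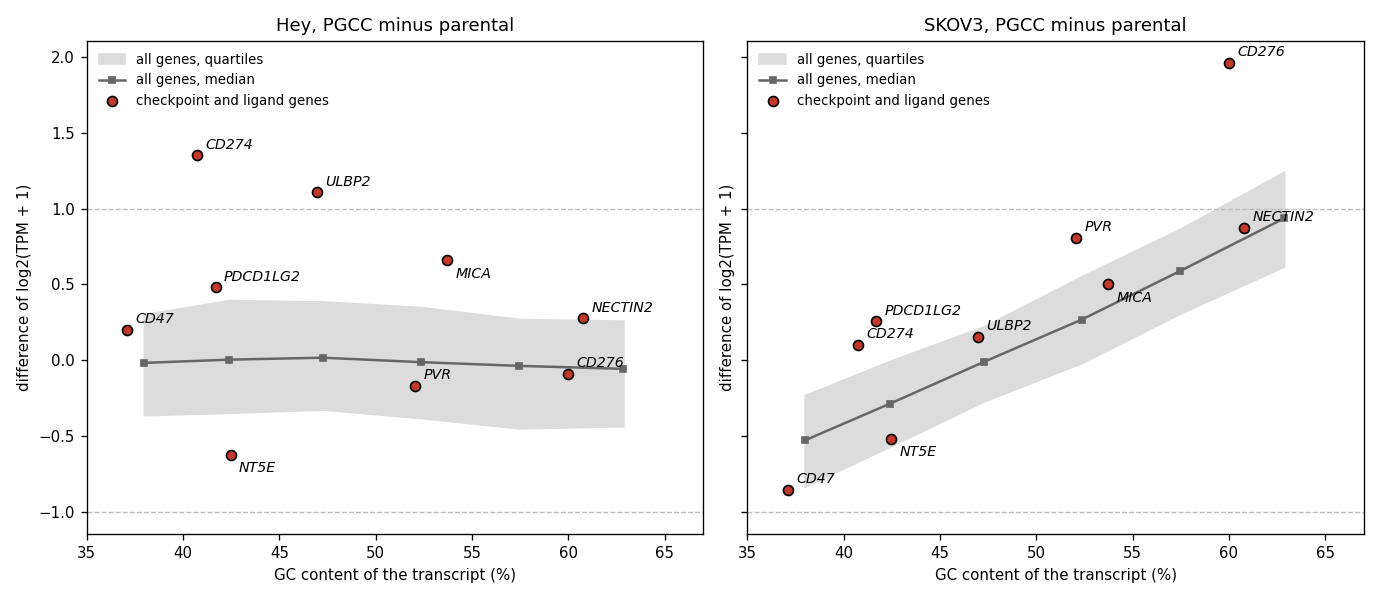
Difference between PGCCs and parental cells in log2(TPM + 1) (vertical axes) against the GC content of the transcript in percent (horizontal axes), for Hey (left) and SKOV3 (right). Squares and the grey band give the median and quartiles of 13348 genes in 6 GC classes, red points the 9 genes, and dashed lines the 2-fold thresholds. In Hey the medians stay within 0.06 of 0, while in SKOV3 they climb from -0.53 to 0.94, with CD276 above the band at 1.96 and NECTIN2 inside it at 0.87.

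VTCN1 (ENSG00000134258, chr1:117143587-117210960) was listed at 0 in parental and daughter cells of Hey and in parental cells and PGCCs of SKOV3. Hey PGCCs held 0.02 TPM. The SKOV3 daughter library, which is 1 clone, held 5.23 TPM and was the only one above 1 TPM. Since the comparison library is at 0 and no read counts are at hand, no fold is given.

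The list of other B7 family and butyrophilin genes had 12 members, of which 7 passed the filter. VSIR, the gene of the checkpoint protein VISTA, was the only one called higher in PGCCs of both lines. It held 1.57, 6.21 and 5.45 TPM in Hey parental cells, PGCCs and daughter cells and 7.41, 28.2 and 18.1 TPM in the SKOV3 states. Its differences against parental cells were 1.49 and 1.79 for PGCCs and 1.33 and 1.19 for daughter cells, in Hey and SKOV3. The VSIR transcript is 59.2% GC, and with the GC trend removed the PGCC differences were 1.66 in Hey and 1.04 in SKOV3. For PGCCs over both lines limma gave an estimate of 1.64 (SE 0.410, unadjusted p = 0.00469), which did not pass the Benjamini-Hochberg correction over all 14988 genes (adjusted p = 1). In SKOV3 daughter cells 6 of the 7 genes were called higher than in parental cells, with BTN3A1, a butyrophilin read by γδ T cells, at 9.90 and 29.3 TPM (1.48), and the list's median difference was 1.15 against 0.15 for all genes tested, of which 15.1% were called higher. That count rests on the scaling: 2 of the 7 were called after median ratio scaling, 1 after quantile normalization (BTN3A1) and 4 with the GC trend removed, and the median was then 0.94, 0.92 and 1.06. VSIR itself was at 0.98, 0.92 and 0.89 there. In Hey daughter cells 1 was called higher and 1 lower, beside 6.31% and 3.73% of all genes, with 3 lower after median ratio scaling and 2 with the GC trend removed. The lower one as deposited, BTN3A3, with 3.85 and 0.85 TPM (-1.39), was among those called higher in SKOV3 daughter cells (1.03, and 0.82 after median ratio scaling). Of all 14988 genes, 217 were called in opposite directions in daughter cells of the lines. CD80 was listed at 0 in all 6 libraries, and CD86, the other classical B7 ligand, did not exceed 0.12 TPM.

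CD47 (ENSG00000196776, chr3:108043091-108091862, minus strand) was abundant in every library. Its levels were 145, 167 and 109 TPM in Hey parental cells, PGCCs and daughter cells and 158, 86.8 and 127 TPM in SKOV3. The lines overlapped, and no difference within a line reached 2-fold. The lowest library was SKOV3 PGCCs, 1.82-fold below SKOV3 parental cells, a difference of -0.85 that became -0.29 with the GC trend removed. CD47 was the most abundant of the 10 genes in each SKOV3 library and was in second place, after NT5E, in each Hey library.

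Of 8 genes listed around CD47 (ligands, receptors and their relatives, and enzymes), 7 passed the filter. Against parental cells, 2 of the 7 were called higher in daughter cells of each line, and 1 lower in Hey. Of all genes, 6.31% (Hey) and 15.1% (SKOV3) were called higher there and 3.73% lower in Hey. In PGCCs 1 was called higher in Hey and 2 in SKOV3, against 7.67% and 9.94% of all genes. Over all 14988 genes, 178 were called higher in daughter cells of both lines. In this list 1 was, THBS1, which encodes thrombospondin-1, a secreted CD47 ligand. It held 7.27, 14.7 and 33.0 TPM in Hey parental cells, PGCCs and daughter cells and 46.0, 76.1 and 369 TPM in SKOV3. Daughter cells exceeded parental cells by 2.04 in Hey and 2.98 in SKOV3, and PGCCs were below daughter cells by 1.12 and 2.26, in the same order of lines. Over both lines the limma estimate for daughter cells was 2.51 (SE 0.422, unadjusted p = 0.000481), which did not pass the correction (adjusted p = 0.601). LRP1, a receptor on phagocytes and other cells that binds calreticulin, was called higher in PGCCs than in daughter cells in both lines, by 1.80 in Hey and 1.29 in SKOV3, the latter 0.80 with the GC trend removed. Of all 14988 genes, 161 were called higher in both lines in that comparison. SIRPA, the gene of the CD47 receptor SIRPα, held 7.90 TPM in SKOV3 parental and 22.5 TPM in SKOV3 daughter cells (1.40). In Hey it held 16.2, 9.40 and 14.8 TPM in parental cells, PGCCs and daughter cells, with no call against parental cells (-0.72 and -0.12). SIRPB1, a relative of SIRPA, held 4.27 TPM in Hey parental cells and 53.3 TPM in Hey daughter cells (3.37), and at most 0.44 TPM in SKOV3. QPCT, an enzyme that forms pyroglutamate at protein ends, held 5.52 and 15.9 TPM in Hey parental cells and PGCCs (1.38). Its relative QPCTL, which acts on CD47 itself, held 4.02 and 9.83 TPM in the SKOV3 pair (1.11, and 0.56 with the GC trend removed).

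NT5E (ENSG00000135318, chr6:85449584-85495791) had the largest level of the 10 genes in each Hey library. Hey parental cells, PGCCs and daughter cells held 881, 571 and 463 TPM, and the SKOV3 states held 93.4, 64.9 and 39.4 TPM. The highest SKOV3 library was below the lowest Hey library, and in both lines the order from parental cells through PGCCs to daughter cells was downward. Daughter cells were 2.37-fold below parental cells in SKOV3 (-1.23), which was called, and 1.90-fold below in Hey (-0.93), which was called only after median ratio scaling (-1.06). PGCCs differed from parental cells by -0.63 in Hey and -0.52 in SKOV3. In the limma test of daughter against parental cells over both lines NT5E had an estimate of -1.08 (SE 0.349), with an unadjusted p = 0.0166 and an adjusted p = 1. No other gene of the set had an unadjusted p under 0.05 there.

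Each of the other genes listed as making, moving or sensing adenosine was below NT5E in every library. Of 15 listed, 7 passed the filter. The most abundant was SLC29A1, a nucleoside transporter, at 24.0 to 39.6 TPM, which in SKOV3 daughter cells (34.6 TPM) came close to NT5E. ENTPD1, which encodes CD39, the ectonucleotidase that commonly works upstream of CD73, did not exceed 0.74 TPM in any library. ENTPD2, a related ectonucleotidase, was at or below 0.10 TPM in Hey and held 3.18, 4.28 and 9.93 TPM in SKOV3 parental cells, PGCCs and daughter cells. In Hey PGCCs 2 of the 7 were called lower than in parental cells, ENPP1 at 3.04 and 0.87 TPM (-1.11) and the adenosine receptor ADORA2B at 18.4 and 8.64 TPM (-1.01, and -0.91 after quantile normalization), where 5.22% of all genes were called lower. In SKOV3 PGCCs 0 of the 7 were called, where 9.94% of all genes were called higher and 4.96% lower. With the GC trend removed 1 was called lower there, SLC29A2 (-0.63 as deposited and -1.38 after removal). DPP4, a peptidase that anchors adenosine deaminase, was called higher in Hey PGCCs than in Hey daughter cells, at 1.43 and 0.03 TPM (1.25). In the same SKOV3 comparison DPP4 was called lower, at 8.53 and 27.7 TPM (-1.59). These Hey levels lie near or below 1 TPM, and DPP4 passed the filter on level through its SKOV3 libraries. Of all 14988 genes, 426 were called in opposite directions between PGCCs and daughter cells of the lines.

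PVR (ENSG00000073008, chr19:44643798-44666162) and NECTIN2 (ENSG00000130202, chr19:44846175-44889223) are neighbors on chromosome 19, 180012 bases apart. PVR held 36.8, 32.6 and 37.7 TPM in Hey parental cells, PGCCs and daughter cells and 21.6, 38.5 and 24.1 TPM in SKOV3. NECTIN2 held 51.6, 62.8 and 48.2 TPM in the Hey states and 37.1, 68.8 and 65.6 TPM in the SKOV3 states. Neither gene was called in any of the 6 comparisons within a line. The largest differences were in SKOV3 PGCCs against parental cells, 0.81 for PVR and 0.87 for NECTIN2, and with the GC trend removed they were 0.51 and 0.10. In SKOV3 daughter cells NECTIN2 differed from parental cells by 0.80 and PVR by 0.15, and the sign for PVR turned under median ratio scaling (-0.05). The sum of both genes ran from 58.7 TPM in SKOV3 parental cells to 107 TPM in SKOV3 PGCCs, and from 85.9 to 95.4 TPM in Hey. PVR overlaps CEACAM19 on the same strand, and how the reads of the overlap were divided is not known.

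Of 8 other nectin and nectin-like genes, 5 passed the filter and 0 were called in PGCCs against parental cells of either line. Over all genes, 7.67% were called higher and 5.22% lower in Hey PGCCs, and 9.94% and 4.96% in SKOV3 PGCCs. In SKOV3 daughter cells 4 of the 5 were called higher than in parental cells, and 0 of 5 in Hey daughter cells, where 15.1% and 6.31% of all genes were called higher. Of those 4, CADM4 and AFDN were near the threshold, and 2 of the 5 were called after median ratio scaling or with the GC trend removed and 3 after quantile normalization. CADM1, a cell adhesion gene whose product binds the T and natural killer cell receptor CRTAM, held 8.08 TPM in SKOV3 parental and 69.9 TPM in SKOV3 daughter cells (2.97), and 17.1 and 34.5 TPM in the Hey pair (0.97). NECTIN3 had the lowest difference of the list in PGCCs of both lines, -0.88 in Hey and -0.67 in SKOV3.

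The NKG2D ligands ULBP2 and MICA followed different courses. ULBP2 (ENSG00000131015, chr6:149942014-149949235) held 14.0, 31.2 and 26.2 TPM in Hey parental cells, PGCCs and daughter cells. SKOV3 parental cells, PGCCs and daughter cells held 6.18, 6.99 and 3.29 TPM, all below the Hey libraries. Hey PGCCs were 2.24-fold above parental cells (1.11, called) and Hey daughter cells 1.88-fold above (0.86). In SKOV3 the differences were 0.15 for PGCCs, a sign that turned under quantile normalization (-0.04), and -0.74 for daughter cells. The daughter difference was thus positive in Hey and negative in SKOV3, without passing the threshold in either.

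MICA (ENSG00000204520, chr6:31399784-31415315) was between 11.9 and 30.9 TPM in all libraries. Its levels were 15.3, 24.8 and 11.9 TPM in Hey parental cells, PGCCs and daughter cells and 21.5, 30.9 and 28.1 TPM in SKOV3, so PGCCs were the highest state in each line. Differences between PGCCs and parental cells were 0.66 in Hey and 0.51 in SKOV3, both below the threshold. Hey PGCCs exceeded Hey daughter cells by 1.00 (2.09-fold), just inside the threshold, and the SKOV3 difference was 0.13. MICA is polymorphic and close in sequence to MICB, and ULBP2 belongs to a cluster of similar genes, so how reads were divided among these copies is uncertain.

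Summed over the 8 NKG2D ligand genes, the level was 54.5, 86.1 and 70.8 TPM in Hey parental cells, PGCCs and daughter cells and 51.3, 67.5 and 72.6 TPM in SKOV3. The parental lines therefore had like sums with unlike makeup. ULBP2 made up 25.6%, 36.3% and 37.0% of the sum in the 3 Hey states and 12.0%, 10.4% and 4.54% in the SKOV3 states. MICA contributed 28.1%, 28.8% and 16.8% in Hey and 41.8%, 45.8% and 38.8% in SKOV3. In SKOV3 daughter cells the largest differences among the ligands were in ULBP1, with 1.94 TPM in parental and 12.95 TPM in daughter cells (2.25), and RAET1E, with 4.58 and 0.08 TPM (-2.37). RAET1E was higher in Hey PGCCs than in Hey parental cells, at 4.96 and 1.96 TPM (1.01), but not after median ratio scaling (0.98) or quantile normalization (0.77). MMP14, a membrane protease able to shed MICA, held 210 to 299 TPM in Hey and 0.31 to 0.96 TPM in SKOV3, the largest difference between the lines in this list (limma estimate 7.30, SE 0.314, adjusted p = 0.000111). MMP14 passed the filter on level through its Hey libraries, so this test is no independent support.

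**Figure D3:**
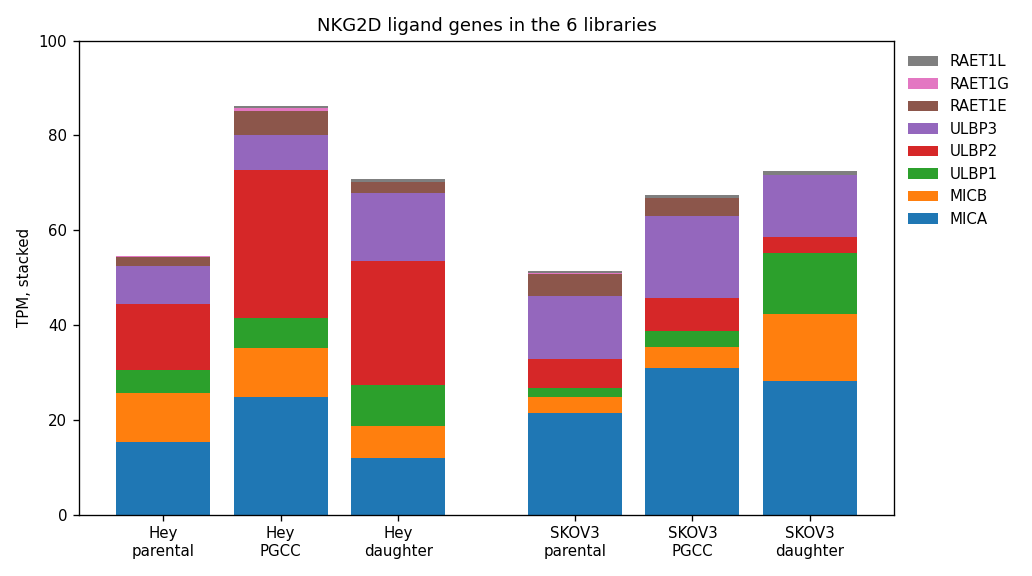
Levels of the 8 NKG2D ligand genes in TPM, stacked in 1 bar per library (vertical axis, starting at 0). The sums were 54.5 and 51.3 TPM in the parental cells of Hey and SKOV3, and ULBP2 (red) took 25.6% to 37.0% of the sum in Hey and 4.54% to 12.0% in SKOV3.

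Over the 9 tested genes, PGCCs had no call against parental cells in common between the lines. Over all 14988 genes, 125 were called higher in both lines and 125 lower in both. Against parental cells, 2 of the 9 were called higher in Hey PGCCs (CD274 and ULBP2), where 7.67% of all 14988 genes were called higher and 5.22% lower. In SKOV3 PGCCs 1 of the 9 was called higher (CD276), against 9.94% of all genes higher and 4.96% lower. None of the 9 was called lower in either line. Their median difference was 0.28 in Hey and 0.26 in SKOV3, beside 0.00 and 0.02 for all genes tested. The limma test of PGCCs against parental cells over both lines gave 0 of the 9 genes, with every adjusted p at 1 and 0 at an unadjusted p under 0.05, and it called 0.02% of all genes.

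In daughter cells the calls against parental cells were PDCD1LG2 and NT5E, both in SKOV3. In Hey daughter cells 0 of the 9 were called, against 6.31% of all genes higher and 3.73% lower, and 7 of the 9 differences were below 0 with a median of -0.42. SKOV3 daughter cells had 1 called higher (PDCD1LG2) and 1 lower (NT5E), where 15.1% of all genes were called higher and 6.34% lower, and the median was 0.22. PVR, whose sign turned with scaling in both lines, and CD276 in SKOV3 (-0.22 after quantile normalization) were the genes of this comparison with no steady direction. By limma 0 of the 9 passed, against 0.0133% of all genes.

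Set against daughter cells, Hey PGCCs had 3 of the 9 called higher (CD274, PDCD1LG2 and MICA), where 8.13% of all genes were called higher and 9.95% lower. SKOV3 PGCCs had 1 called higher (CD276) and 1 lower (PDCD1LG2), where 9.25% were called higher and 14.6% lower. The comparisons with parental and with daughter cells share the PGCC libraries and are not independent.

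**Figure D4:**
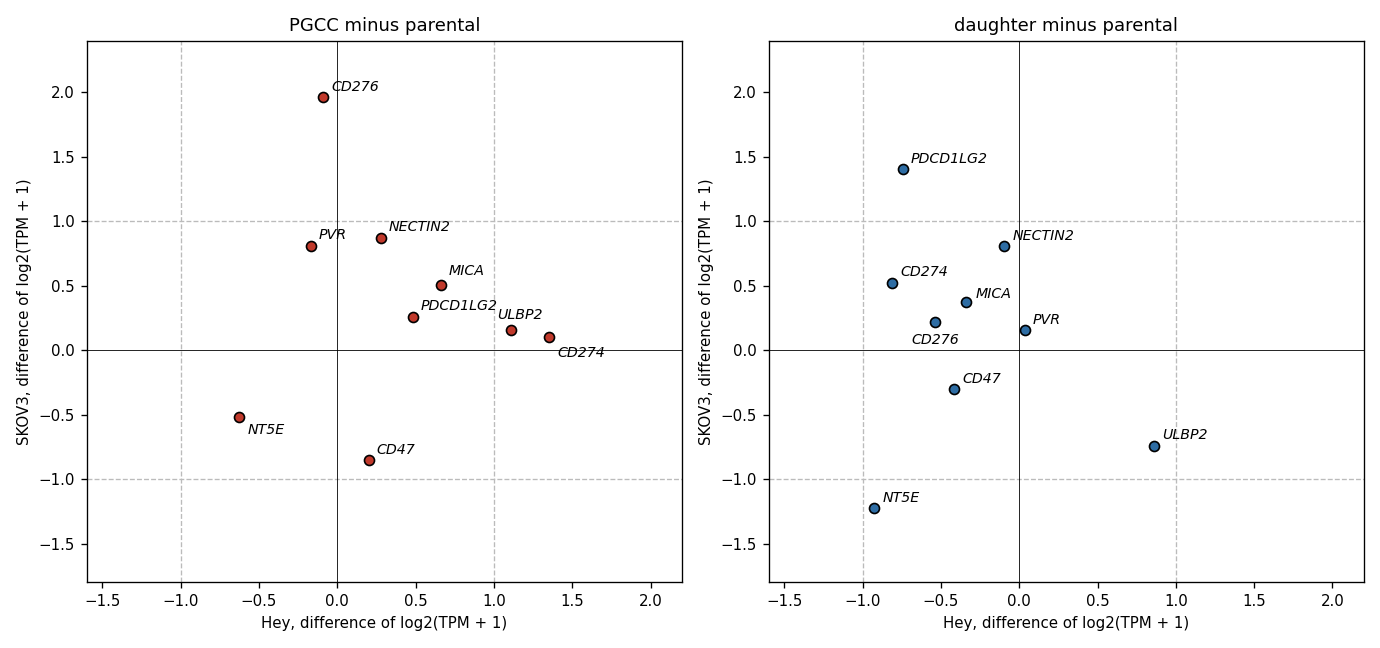
Differences in log2(TPM + 1) in Hey (horizontal axes) and SKOV3 (vertical axes) for PGCCs against parental cells (left) and daughter against parental cells (right), 1 point per gene for the 9 tested genes; dashed lines mark 2-fold. No point lies in a corner beyond both thresholds. CD274 and ULBP2 passed in Hey PGCCs, CD276 in SKOV3 PGCCs, and PDCD1LG2 and NT5E in SKOV3 daughter cells.

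**Figure D5:**
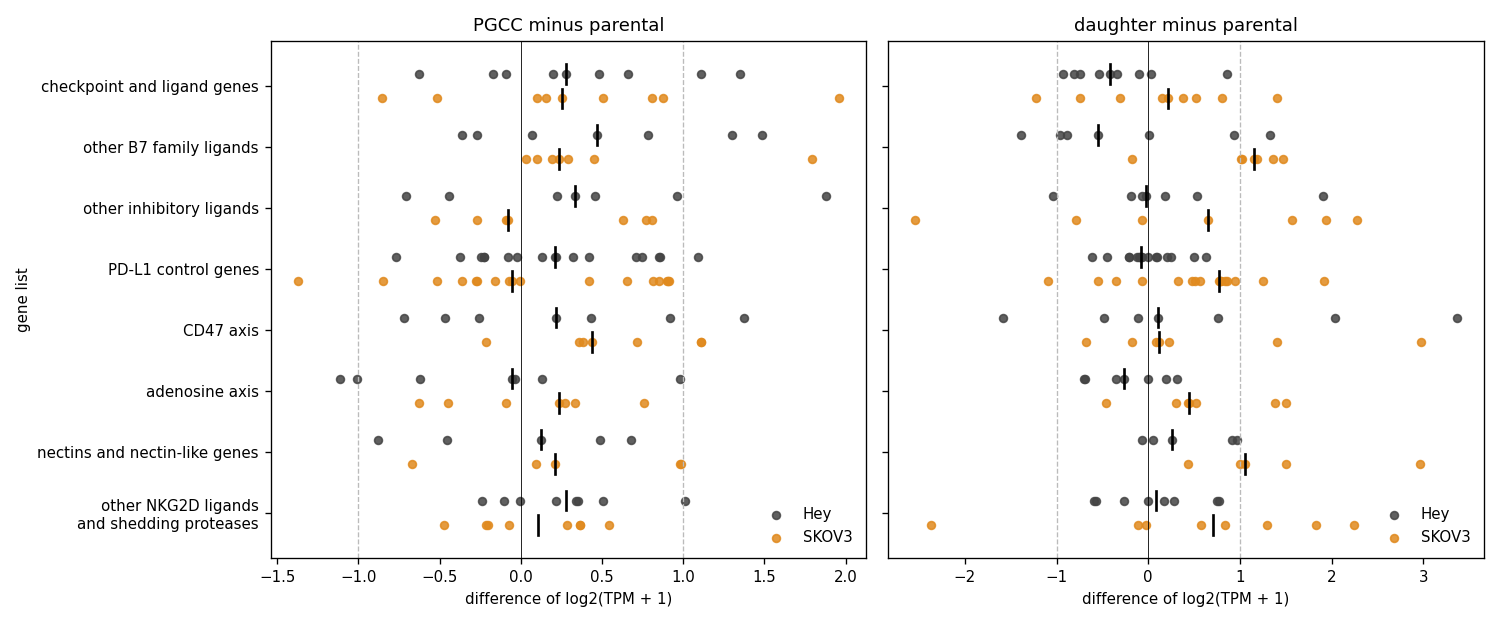
Differences in log2(TPM + 1) from parental cells (horizontal axes) for PGCCs (left) and daughter cells (right) in Hey (dark) and SKOV3 (orange), 1 point per gene, for the 9 genes and 7 related lists; black bars are medians and dashed lines mark 2-fold. In SKOV3 daughter cells the medians of other B7 family ligands (1.15) and of nectins (1.06) lie beyond the 2-fold line, and below it after median ratio scaling (0.94 and 0.84).

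By limma, 4 of the 9 genes differed between the lines at an adjusted p under 0.05. Over 3 libraries per line, with state as a term, limma gave a Hey minus SKOV3 estimate of 3.29 (SE 0.285, adjusted p = 0.000563) for NT5E and 3.08 (SE 0.525, adjusted p = 0.00827) for CD274. PDCD1LG2 had 2.80 (SE 0.525, adjusted p = 0.0115) and ULBP2 1.91 (SE 0.399, adjusted p = 0.0168). All 4 were higher in Hey, in 3 of 3 states, where 6.27% of all genes were called higher in Hey and 14.4% higher in SKOV3. CD274 passed the filter on level through its Hey libraries, since its SKOV3 mean was 0.983 TPM, so its test is no independent support. Without the PGCC libraries of both lines none of the 4 passed (adjusted p of 0.0717 for NT5E, 0.117 for CD274, 0.155 for PDCD1LG2 and 0.159 for ULBP2), with estimates of 3.37, 2.44, 2.37 and 1.86. Without the parental libraries CD274 (0.0572) and PDCD1LG2 (0.0888) did not pass, and without the daughter libraries ULBP2 (0.0941) did not. CD276 was higher in SKOV3 in every state without passing the correction (-1.27, SE 0.463, adjusted p = 0.0926). By levels alone, the 3 Hey libraries lay above the 3 SKOV3 libraries for the same 4 genes and below them for CD276, where 12.8% and 31.8% of all genes were so separated. The estimates for CD47 (0.20, SE 0.340), PVR (0.38, SE 0.336), NECTIN2 (-0.03, SE 0.319) and MICA (-0.65, SE 0.333) were within 2 SE of 0, and the sign for NECTIN2 turned under median ratio scaling (0.30).

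Other inhibitory ligands outside these families also separated the lines. IDO1, an enzyme that depletes tryptophan, did not exceed 0.33 TPM in Hey and held 28.1, 48.8 and 85.7 TPM in SKOV3 parental cells, PGCCs and daughter cells (limma estimate -5.45, SE 0.431, adjusted p = 0.000407). It passed the filter on level through its SKOV3 libraries, so this test is no independent support. CD24, a ligand of Siglec-10 on macrophages, held 2.72, 12.7 and 12.9 TPM in the Hey states and 513, 355 and 297 TPM in the SKOV3 states (-5.41, SE 0.531, adjusted p = 0.000888). Within Hey, CD24 was higher than in parental cells by 1.88 in PGCCs and 1.90 in daughter cells. LGALS3, a galectin that binds glycans on T cells, was called higher in PGCCs than in daughter cells in both lines, by 1.03 in Hey and 2.27 in SKOV3. In a list of 13 immune cell receptor and adaptor genes, 0 passed the filter and none exceeded 0.914 TPM. PDCD1, the gene of PD-1, was at 0 in all 6 libraries. That list left out SIRPA, the gene of the CD47 receptor SIRPα, at 7.90 to 22.5 TPM. It also left out the adenosine receptor genes, of which ADORA2B held 5.28 to 18.4 TPM.

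For each gene the expressed gene with the most similar profile was found among 10791 genes with a mean of at least 5 TPM, by the Pearson correlation of log2(TPM + 1) over the 6 libraries. The 6 points share only 2 lines, so the values are descriptive and high values are common: 250 genes reached at least 0.95 with NT5E and 91 with CD274. CD274 was most like VEGFC (0.998), NT5E most like PLAG1 (0.998), CD276 most like SCAMP2 (0.995), ULBP2 most like LINC02535 (0.993) and CD47 most like INSIG2 (0.992). MICA was nearest TRIM3 (0.992), PVR nearest BAG3 (0.990), PDCD1LG2 nearest LINC02802 (0.995) and NECTIN2 nearest CLCN6 (0.981). Among the genes of the lists, CD274 and PDCD1LG2 were most alike to each other from the side of CD274 (0.969), while PDCD1LG2 was closest to JAK2 (r = 0.98), a kinase gene of interferon signaling. For VTCN1 such a value would rest on the SKOV3 daughter library alone and is not given.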

How the data were processed

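RNA sequencing gave 6 libraries, 1 for each of the 3 states of Hey and SKOV3. Per the study's methods and the submitters' processing notes, reads were trimmed with fastp and quantified against the human transcriptome (hg38) with Salmon 0.14.1, and the authors deposited TPM values, 1 per gene symbol and library. The annotation release, the step from transcripts to symbols and bias options are not given in the sources used here. The TPM columns were used as deposited. They hold no counts, so no count test was run and no counting error can be given. No replicates exist within a condition.

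Differences of log2(TPM + 1) were taken within each line and called at 1. limma 3.58.1 (R 4.3.3) was run on the genes averaging at least 1 TPM, with line and state as terms, a trend in eBayes and Benjamini-Hochberg adjustment at 0.05. It has 2 residual degrees of freedom before moderation, and its spread is the disagreement between states or lines, not between replicates. Alternatives were a pseudocount of 0.1, median ratio scaling, thresholds of 1.5-fold and 3-fold, quantile normalization, omission of mitochondrial genes, other filters on level, a lowess trend in GC content and transcript length (fraction 0.3) removed, eBayes without trend, no line term, and each state left out. Counts of called list genes were recomputed under the scalings and the GC trend, a recount added after seeing the data. The genes, the 11 related lists and the alternatives were chosen with earlier results of these data known. All 10 genes were named. From the lists, genes called alike in both lines were named by rule. Some, but not all, of those with the largest and smallest difference per comparison were named by rule as well. The rest were named for their role, after their values were seen. Positions, lengths and GC content came from GENCODE release 44 (GRCh38), joined by symbol, for 13348 of 14988 genes. Fits were run on simulated data with known large changes and less noise than in these libraries. That was a check of the code and does not show the error or power of the tests here. Python 3.11.15, numpy 2.4.6, pandas 2.3.3, scipy 1.17.1, statsmodels 0.14.6 and matplotlib 3.10.9 were used.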

Additional observations from a re-analysis of the deposited data

Results flagged for a closer look

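Differences of opposite sign in the lines, with at least 1 of the pair called, were found in 3 genes. Other genes had pairs of opposite sign in which neither was called. CD276 differed between PGCCs and parental cells by -0.09 in Hey and 1.96 in SKOV3, so that the Hey difference minus the SKOV3 difference was -2.05. PDCD1LG2 in daughter against parental cells gave -0.74 (Hey) and 1.40 (SKOV3), apart by -2.15. Between PGCCs and daughter cells, CD274 differed by 2.17 in Hey and -0.42 in SKOV3 (apart by 2.59), and PDCD1LG2 by 1.22 and -1.15 (apart by 2.37). With 1 library per condition these differences between the lines were not tested. The SKOV3 levels of CD274 and PDCD1LG2 were at most 3.17 TPM.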

How the results depend on the processing

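The limma tests of state have cell line as a term and so compare states within lines. With replicate numbers no paired analysis was possible because each condition has 1 library. The number of genes called in Hey PGCCs against parental cells was 2, with 4 at 1.5-fold and 0 at 3-fold. In SKOV3 PGCCs it was 1, with 4 at 1.5-fold. In Hey daughter cells it was 0, with 1 after median ratio scaling and 4 at 1.5-fold, and in SKOV3 daughter cells 2, with 4 at 1.5-fold and 0 at 3-fold. Between PGCCs and daughter cells it was 3 in Hey, with 1 at 3-fold, and 2 in SKOV3, with 1 after median ratio scaling, 5 at 1.5-fold and 1 at 3-fold. Of the 4 genes that separated the lines, 1 passed with all genes above 0 in the test, and leaving out 1 state in turn gave 0 to 3. The share of all genes called in Hey PGCCs against parental cells, 12.9% in either direction, was 21.1% with the pseudocount of 0.1, and in SKOV3 PGCCs it was 4.79% with the GC trend removed against 14.9%. Of the differences of single genes under the alternatives, 271 kept their direction and side of the threshold, 14 below the threshold turned in sign, 5 newly passed and 4 no longer passed. NT5E in SKOV3 PGCCs against daughter cells passed with the GC trend removed (1.01), and ULBP2 there with the pseudocount of 0.1 (1.06) and quantile normalization (1.17). ULBP2 in SKOV3 daughter against parental cells passed with quantile normalization (-1.21). The median of all genes shifted by over 0.1 with scaling, from 0.15 to -0.02 after median ratio scaling in SKOV3 daughter cells and from 0.00 to 0.12 with mitochondrial genes left out in Hey PGCCs. Values near or below 1 TPM carry the fewest reads, whose number is not known here.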

Other observations

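Epithelial and ovarian cancer markers outside the immune genes moved between the states as well. MSLN, the gene of mesothelin, held 21.5, 23.3 and 0.39 TPM in Hey parental cells, PGCCs and daughter cells and 33.1, 46.1 and 1.85 TPM in SKOV3. Daughter cells were thus below parental cells by 4.02 on the log2(TPM + 1) scale in Hey and 3.58 in SKOV3 (limma estimate over both lines -3.80, SE 0.397, unadjusted p = 2.09e-05, adjusted p = 0.105). WT1 was called higher in daughter cells of both lines, with 1.34 and 4.10 TPM in Hey and 0.54 and 2.91 TPM in SKOV3, though in neither line after quantile normalization (0.86 and 0.89). In SKOV3 PGCCs 5 of the 11 tested markers were called higher than in parental cells, and 0 of 11 in Hey PGCCs, where 9.94% and 7.67% of all genes were called higher. KRT8 was the largest of these at 411 and 1052 TPM (1.35), and the list's median of 0.93 became 0.35 with the GC trend removed, when 1 of the 11 was called.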
